A study of Mus musculus with 10 samples.

Results

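The astrocyte transporters and markers described here were 9 genes, the glutamate transporters *Slc1a2* and *Slc1a3*, the enzymes *Glul*, *Aldoc* and *Aldh1l1*, the channel genes *Aqp4* and *Gja1*, the filament gene *Gfap* and the transcription factor *Sox9*. They were chosen by name as known astrocyte genes, at a time when earlier results of these data were known. All 9 were found among the 24453 genes of the count table. They were measured in intratelencephalic projection neurons (IT-PNs) of layer 5 of the primary motor cortex (M1), purified by fluorescence activated cell sorting (FACS) and profiled by low-input RNA-seq. Both IT-PN types came from the same 5 male mice of the (Zfp312-EGFP)CO61GsatMmnc line on a Swiss Webster background, hemizygous for a *Fezf2-Gfp* transgene that drives GFP from *Fezf2* regulatory elements. Each mouse received an injection of CTB, a subunit of cholera toxin coupled to a far-red dye that is carried back along axons, in the left M1 at postnatal day 23 to 25, and layer 5 of the right M1 was collected at postnatal day 28 to 32. *Fezf2+ve* IT-PNs carried GFP and CTB and *Fezf2−ve* IT-PNs carried CTB only, with 1 library of each type from each animal, so that the 10 libraries form 5 pairs and are named by type and animal number. GFP marks cells in which the transgene is active, and the gates were set on the fluorescent labels, not on markers of glia.

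Astrocytes are glial cells that surround synapses and blood vessels. In the cortex they clear synaptic glutamate through the transporters encoded by *Slc1a2* and *Slc1a3*, convert it to glutamine with the glutamine synthetase encoded by *Glul*, exchange ions and metabolites through gap junctions, and take up water at vessel-facing endfeet through the aquaporin encoded by *Aqp4*. Neurons express these genes at low levels or not at all, which is why they are used to identify astrocytes among dissociated cortical cells.

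Between 89138 and 217738 reads per library were counted on genes. At that depth 3 reads, taken as the floor of detection, correspond to 13.8 to 33.7 CPM (reads scaled to a common total of gene reads). The reads carry no molecular identifiers, so floors and intervals cover counting error only. The members together held 2352 of the 1553687 gene reads of the 10 libraries, or 0.151%. *Slc1a2* supplied 1817 of these reads, *Slc1a3* 271 and *Aldoc* 163. *Glul* had 49 reads, *Gja1* 31 and *Aqp4* 12, whereas *Aldh1l1* had 6, *Sox9* 3 and *Gfap* 0. The members were therefore detected very unequally, with 3 of them at or under 3 reads in each library.

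Summed over the 9 members, the level across animals 1 to 5 was 779, 7655, 644, 1689 and 482 CPM in *Fezf2+ve* libraries. The *Fezf2−ve* libraries of the same animals had 756, 280, 213, 3818 and 50.5 CPM. The *Fezf2+ve* library was the higher of the pair in 4 of 5 animals, the ranges of the types overlapped, and the highest library of each type came from a different animal (2 and 4). The mean was 2250 ± 3058 CPM (SD, n = 5) in *Fezf2+ve* and 1024 ± 1584 CPM (SD, n = 5) in *Fezf2−ve* IT-PNs, a difference smaller than the spread within either type. The log2 ratio of these means was 1.14, but −0.43 without animal 2 and 2.87 without animal 4. It was 0.49 when the CPM were scaled by TMM (edgeR's trimmed mean normalization). In sorted bulk samples such as these, fewer cells that express the members and less of their RNA per cell cannot be told apart. Which cells supplied these reads was not tested.

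**Figure D1:**
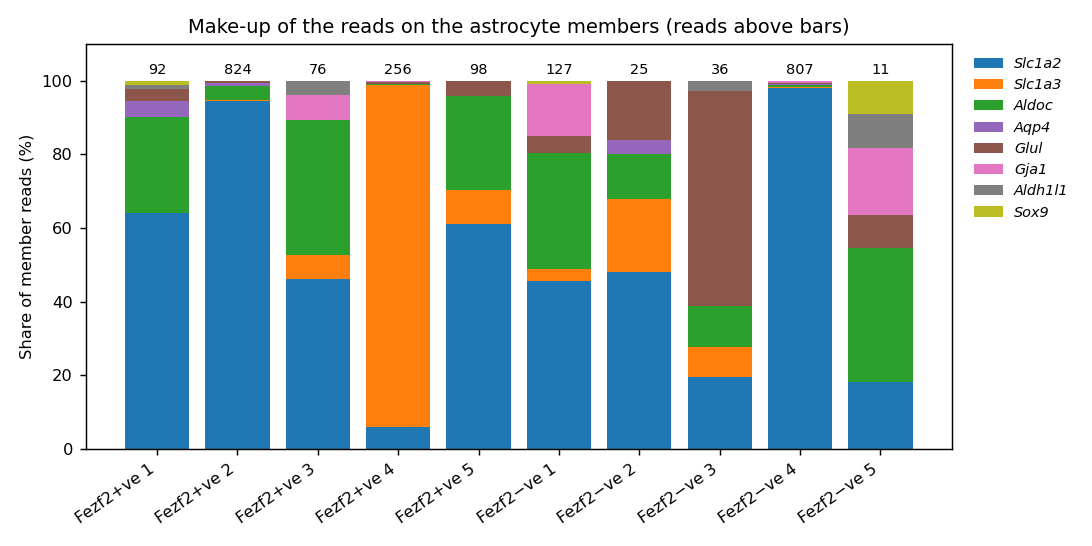
Share of the reads on the 9 astrocyte members (vertical axis, %) taken by each gene in each of the 10 libraries, with the number of member reads above each bar. *Slc1a2* held 778 of 824 reads in *Fezf2+ve* 2 and 791 of 807 in *Fezf2−ve* 4, *Slc1a3* held 238 of 256 in *Fezf2+ve* 4, and *Gfap* had no reads.

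The make-up of the member reads differed from library to library. *Slc1a2* held 778 of the 824 member reads of *Fezf2+ve* 2 and 791 of the 807 of *Fezf2−ve* 4. *Slc1a3* held 238 of the 256 of *Fezf2+ve* 4, and *Glul* 21 of the 36 of *Fezf2−ve* 3. In *Fezf2−ve* 5 the members together had 11 reads. Without *Slc1a2*, the summed level of the other 8 members was 566 ± 579 CPM (SD, n = 5) in *Fezf2+ve* and 169 ± 145 CPM (SD, n = 5) in *Fezf2−ve* IT-PNs. This sum was higher in *Fezf2+ve* in 4 of 5 animals, but here animal 1 was the opposite one (279 CPM in *Fezf2+ve* and 411 CPM in *Fezf2−ve*). Animal 4, with 1590 CPM in its *Fezf2+ve* library, carried most of the difference, and without it the means were 310 ± 102 and 192 ± 156 CPM (SD, n = 4). Without animal 1 they were 638 ± 642 and 109 ± 60.6 CPM (SD, n = 4).

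Types were compared by the quasi-likelihood test of edgeR, blocked by animal, on the 7409 genes that reached 10 CPM in 2 or more libraries, of which 6 were members. Fold changes are *Fezf2+ve* over *Fezf2−ve*, and calls were taken at a Benjamini-Hochberg adjusted p at or below 0.1. None of the 6 tested members was called, beside 0 of all tested genes (0%). None of the 6 had an unadjusted p under 0.05 in this test, which 288 genes had (3.89%). Without the block, edgeR called 279 genes (3.77%), and DESeq2 with the block called 98 (1.32%), in both cases without a member. DESeq2 gave no adjusted p for *Aqp4*, *Glul* and *Gja1*, so that only 3 members could be called by it. With shares this low over all genes, a count of 0 among so few genes is no result about the members.

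Of the glutamate transporters, *Slc1a2* encodes the main carrier of forebrain astrocytes (chr2:102658659-102790784 of mm10, plus strand). Across animals 1 to 5, *Fezf2+ve* IT-PNs had 499, 7228, 296, 99.0 and 295 CPM of *Slc1a2*. The levels in *Fezf2−ve* IT-PNs were 345, 135, 41.5, 3742 and 9.19 CPM. *Fezf2+ve* 2 (778 reads) and *Fezf2−ve* 4 (791 reads) stood far above the remaining 8 libraries, which had 2 to 60 reads each, and the types overlapped over most of their range. *Slc1a2* was higher in *Fezf2+ve* in 4 of 5 animals, with animal 4 in the opposite direction. The mean was 1683.5 ± 3102.5 CPM (SD, n = 5) in *Fezf2+ve* and 855 ± 1619.6 CPM (SD, n = 5) in *Fezf2−ve* IT-PNs, and the medians were 296 and 135 CPM. Without *Fezf2+ve* 2 the mean of *Fezf2+ve* was 297 ± 164 CPM (SD, n = 4), and without *Fezf2−ve* 4 that of *Fezf2−ve* was 133 ± 151 CPM (SD, n = 4).

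The log2 fold change of *Slc1a2* was 2.46 ± 1.78 (SE), with an adjusted p of 0.999 by the quasi-likelihood test of edgeR after Benjamini-Hochberg adjustment (unadjusted p = 0.184). Without the animal block it was −0.05 ± 1.52 (SE), and the cause of this change was not tested. Without animal 4 the log2 fold change was 3.52 ± 1.37 (SE; unadjusted p = 0.0278 by edgeR's quasi-likelihood test). Without animal 2 it was 1.39 ± 2.06 (SE; unadjusted p = 0.513 by the same test). DESeq2 with the block gave 2.50, with an unadjusted p of 0.0484 and a Benjamini-Hochberg adjusted p of 0.327. Over the alternatives of edgeR and DESeq2 tried, the adjusted p of *Slc1a2* was 0.327 or higher.

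*Slc1a3* encodes the other glutamate carrier of astrocytes, which is also used by radial glia and by the Bergmann glia of the cerebellum (chr15:8634124-8710764, minus strand). From animal 1 to animal 5, *Slc1a3* was at 0, 37.2, 42.3, 1570 and 44.3 CPM in *Fezf2+ve* IT-PNs. The *Fezf2−ve* values were 23.8, 56.1, 17.8, 14.2 and 0 CPM. *Fezf2+ve* 4 held 238 of the 271 reads, and the other 9 libraries had 0 to 9 reads, with the types overlapping. Thus the library richest in *Slc1a3* was the *Fezf2+ve* library with the lowest level of *Slc1a2*. *Slc1a3* was higher in *Fezf2+ve* in 3 of 5 animals.

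The log2 fold change of *Slc1a3* was 1.70 ± 1.86 (SE; adjusted p = 0.999 by the quasi-likelihood test of edgeR after Benjamini-Hochberg adjustment). It was 0.45 without animal 4. Without the animal block it was 4.81, with an unadjusted p of 0.00979 and an adjusted p of 0.134, the lowest adjusted p of *Slc1a3* over the alternatives tried. Across the 10 libraries the log2(TMM-scaled CPM + 1) of the transporters had a Pearson correlation of 0.18 and a Spearman correlation of 0.09. Outside *Fezf2+ve* 4, *Slc1a3* had only 0 to 9 reads per library, so these values cannot show whether the levels follow each other.

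**Figure D2:**
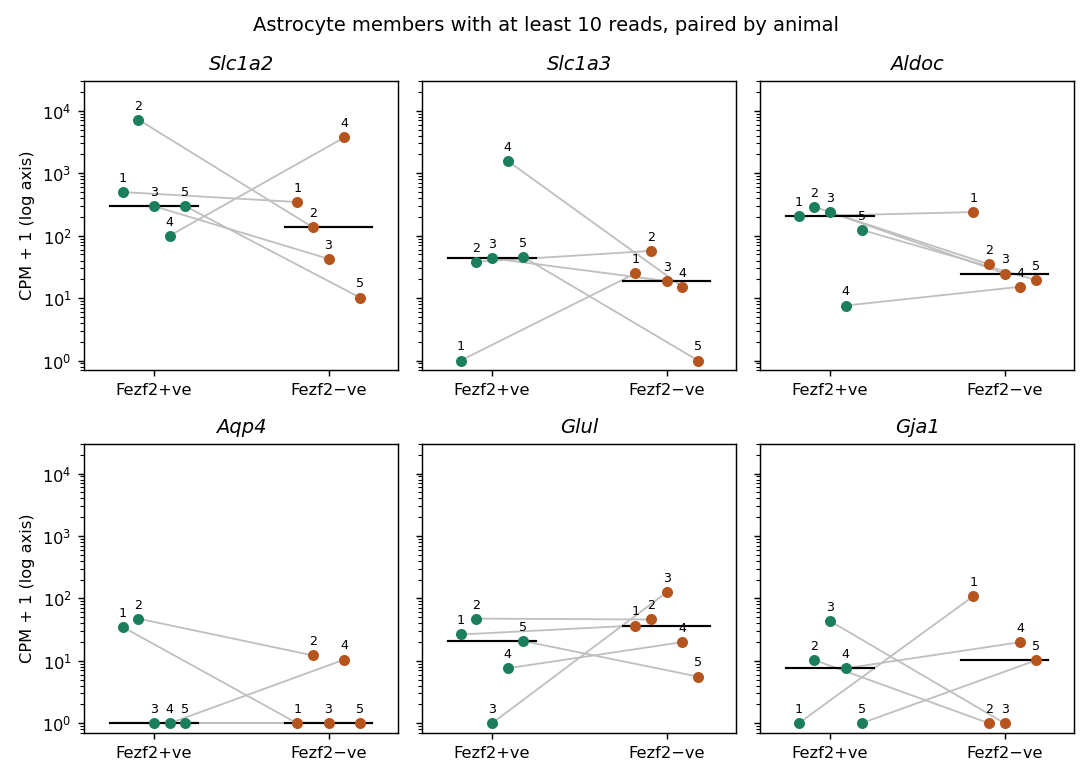
Level (CPM + 1, log axis) of the 6 astrocyte members with at least 10 reads in *Fezf2+ve* and *Fezf2−ve* libraries. Each point is 1 library with its animal number, grey lines join the libraries of an animal and black bars are medians over 5 libraries; *Slc1a2* was highest in *Fezf2+ve* 2 and *Fezf2−ve* 4, *Slc1a3* in *Fezf2+ve* 4, and the types overlapped for each of the 6.

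Other glutamate transporters were compared with these members. *Slc1a1*, which encodes the main neuronal carrier of the same family, had 1384 reads, of which 472 were in *Fezf2+ve* 2 and 762 in *Fezf2−ve* 3. Its log2 fold change was −1.57 ± 1.51 (SE), and the edgeR quasi-likelihood test did not call it. Among the 8 transporter genes listed beside the members, *Slc1a6* had 13 reads and the vesicular transporter *Slc17a7*, a marker of cortical excitatory neurons, had 11. *Slc1a5* and *Slc17a8* had none. Of the 4 that could be tested, none had an unadjusted p under 0.05, 1 had a positive and 3 a negative fold change.

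*Glul* encodes glutamine synthetase, which turns glutamate taken up by astrocytes into glutamine (chr1:153899944-153909723, plus strand). *Glul* was at 25.4, 46.4, 0, 6.60 and 19.7 CPM in *Fezf2+ve* IT-PNs of animals 1 to 5. Its levels in *Fezf2−ve* IT-PNs were 35.7, 44.9, 124, 18.9 and 4.59 CPM. The highest library was *Fezf2−ve* 3 with 21 of the 49 reads, and the remaining libraries of both types spanned the same range, with 0 to 6 reads. *Glul* was higher in *Fezf2−ve* in 3 of 5 animals, and its log2 fold change of −0.78 ± 1.36 (SE) was smaller than its error. Its log2 fold change was −0.01 without animal 3.

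The genes that act with *Glul* in the glutamate-glutamine cycle were also low. All 10 genes of this list had at least 1 read, and 6 could be tested. The list summed to 52.8 to 762 CPM (median 261) in the *Fezf2+ve* and 32.1 to 173 CPM (median 78.5) in the *Fezf2−ve* libraries. *Glud1*, the mitochondrial glutamate dehydrogenase, had 157 of the 311 reads of the list and a log2 fold change of 2.20 ± 1.27 (SE). *Slc38a3*, the glutamine exporter of astrocytes, had 61 of its 77 reads in *Fezf2+ve* 2, the library with the highest *Slc1a2*. *Got2* had 17 reads in *Fezf2+ve* and 13 in *Fezf2−ve* libraries, *Pcx* had 8 and 6, and *Slc38a2* had 10 and 4. None of the 6 tested genes had an unadjusted p under 0.05 in edgeR's quasi-likelihood test.

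*Aldoc* encodes the brain isoform of the glycolytic enzyme aldolase, which in the cortex is found mainly in astrocytes (chr11:78322968-78327781, plus strand). *Fezf2+ve* IT-PNs of animals 1 to 5 had 203, 288, 237, 6.60 and 123 CPM of *Aldoc*. *Fezf2−ve* IT-PNs had 238, 33.7, 23.7, 14.2 and 18.4 CPM. In each type 1 library went against the rest, with *Fezf2+ve* 4 at 1 read beside 24 to 31 in the other *Fezf2+ve* libraries, and *Fezf2−ve* 1 at 40 reads beside 3 or 4. The types overlapped through these libraries, and *Aldoc* was higher in *Fezf2+ve* in 3 of 5 animals. The means were 172 ± 110 CPM (SD, n = 5) and 65.6 ± 96.8 CPM (SD, n = 5), and the medians 203 and 23.7 CPM.

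Of the members, *Aldoc* had its reads spread most evenly, with 40 of 163 reads in its richest library. Its log2 fold change was 1.73 ± 1.19 (SE), with an adjusted p of 0.999 by the quasi-likelihood test of edgeR after Benjamini-Hochberg adjustment (unadjusted p = 0.162). Leaving out 1 animal at a time gave 1.22 to 2.21. *Aldoa*, the aldolase of most tissues, had 13 reads and a log2 fold change of 0.68 ± 1.49 (SE).

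*Aldh1l1* encodes a folate enzyme widely used as a marker of astrocytes across the brain (chr6:90486427-90600203, plus strand). It had 1 read in *Fezf2+ve* 1, 3 in *Fezf2+ve* 3, 1 in *Fezf2−ve* 3, 1 in *Fezf2−ve* 5 and 0 in the other 6 libraries. All libraries of both types were at or under the floor of 3 reads, so no fold change is given. Its mitochondrial relative *Aldh1l2* had 3 reads.

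*Aqp4* encodes the water channel of astrocyte endfeet (chr18:15389496-15410982, minus strand). It had 4 reads in *Fezf2+ve* 1 and 5 in *Fezf2+ve* 2 (33.9 and 46.4 CPM), 1 in *Fezf2−ve* 2 and 2 in *Fezf2−ve* 4 (11.2 and 9.46 CPM), and 0 in the other 6 libraries. Only the *Fezf2+ve* libraries of animals 1 and 2 were above the floor of 3 reads. Pooled over the libraries, the ratio of *Fezf2+ve* to *Fezf2−ve* was 3.67 with an exact 95% counting interval of 0.916 to 21.1, which includes equal levels. The fitted log2 fold change was 1.23 ± 1.99 (SE), and −0.14 without animal 1. The related channel *Aqp9* had 29 reads, 16 of them in *Fezf2+ve* 3, and *Aqp1* had 0.

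*Gja1* encodes the main connexin of astrocyte gap junctions (chr10:56377330-56402513, plus strand). Animals 1 to 5 had 0, 9.29, 42.3, 6.60 and 0 CPM of *Gja1* in *Fezf2+ve* IT-PNs. In *Fezf2−ve* IT-PNs the same animals had 107, 0, 0, 18.9 and 9.19 CPM. *Fezf2−ve* 1 held 18 of the 31 reads and *Fezf2+ve* 3 held 5, and each type had 2 libraries at 0. *Gja1* was higher in *Fezf2−ve* in 3 of 5 animals. Its log2 fold change of −0.82 ± 1.98 (SE) turned to 0.41 without animal 1. Of its relatives, the connexin genes *Gja4*, *Gjb2* and *Gjd2* had no reads.

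Genes whose products anchor *Aqp4* or *Gja1* proteins at the membrane had 1222 reads in all. The 5 genes of this list were tested, and none was called or had an unadjusted p under 0.05 by edgeR's quasi-likelihood test. *Dtna*, which encodes dystrobrevin alpha of the dystrophin complex, had 732 reads, of which 531 were in *Fezf2+ve* 2 and 117 in *Fezf2−ve* 5. Its log2 fold change was 3.81 ± 1.83 (SE; unadjusted p = 0.0507 by edgeR's quasi-likelihood test). *Dtna* was the 1 gene of this list called by DESeq2, with a Benjamini-Hochberg adjusted p of 0.0842, beside 1.32% of all tested genes. The list summed to 226 to 5704 CPM in *Fezf2+ve* and 175 to 795 CPM in *Fezf2−ve* libraries, with the highest sum again in *Fezf2+ve* 2.

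*Gfap* encodes the intermediate filament of reactive and white-matter astrocytes, and is normally low in astrocytes of the cortical grey matter (chr11:102887336-102900912, minus strand). It had 0 of 1553687 reads. This allows a level of up to 1.93 CPM over all libraries together, and of 13.8 to 33.7 CPM in single libraries. The filament genes *Vim* and *Nes* had 1 and 0 reads. *Sox9*, a transcription factor found in the nuclei of nearly all cortical astrocytes (chr11:112782224-112787760, plus strand), had 1 read in each of *Fezf2+ve* 1, *Fezf2−ve* 1 and *Fezf2−ve* 5. Both genes were below the floor in all libraries, and a difference between the types was not detectable at this depth. *Sox8* and *Sox10*, of the same subgroup as *Sox9*, had 20 and 17 reads.

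Levels were compared between members per length, as CPM per kilobase of the RefSeq gene span, averaged over the 10 libraries. On this scale *Aldoc* was highest at 25.2 ± 23.9 (SD, n = 10), followed by *Slc1a2* at 9.57 ± 17.9, *Glul* at 3.34 ± 3.68 and *Slc1a3* at 2.35 ± 6.37. *Gja1* came next at 1.48 ± 2.55 CPM per kilobase, and *Aqp4*, *Sox9* and *Aldh1l1* were at 0.468 ± 0.772, 0.343 ± 0.576 and 0.0917 ± 0.165. No neighbours in this order differed by more than the larger SD of the pair. By the median over libraries, which single rich libraries move less, *Aldoc* was at 16.6, *Glul* at 2.30, *Slc1a2* at 2.23, *Gja1* at 0.601 and *Slc1a3* at 0.398 CPM per kilobase, and the other 4 members were at 0. *Aldoc* thus came first by both, whereas *Slc1a2* moved just behind *Glul*, and *Slc1a3* behind *Gja1*. The order after *Aldoc* differed between the types, but this was not tested and *Slc1a3* and *Gja1* were near the floor. Their median libraries had 5 and 1 reads in *Fezf2+ve* and 3 and 2 reads in *Fezf2−ve* IT-PNs. By the median over 5 libraries, *Fezf2+ve* IT-PNs had *Slc1a2* at 2.24, *Glul* at 2.01, *Slc1a3* at 0.552 and *Gja1* at 0.503 CPM per kilobase, and *Fezf2−ve* IT-PNs had *Glul* at 3.65, *Slc1a2* at 1.02, *Gja1* at 0.700 and *Slc1a3* at 0.232. By the mean, *Slc1a3* was at 4.42 ± 8.98 CPM per kilobase in *Fezf2+ve* (SD, n = 5), which rested on *Fezf2+ve* 4, and at 0.292 ± 0.271 in *Fezf2−ve* IT-PNs (SD, n = 5). The libraries were made to be biased towards transcript 3′ ends, so a length scale can understate genes with a long span. Without that scale *Slc1a2* came first, with a mean of 1269 CPM and a median of 296 CPM over the 10 libraries. *Aldoc* then had a mean of 119 CPM and a median of 78.3 CPM. The order per kilobase thus rests on the choice of the gene span as length. The intervals used for counting are not stated. Judged by the number and position of the mapped reads, reads in introns were most likely counted. Reads of unspliced RNA then count too, which can raise the level of genes of long span such as *Slc1a2*.

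The gene models of 6 of the members overlap other annotated genes. *Glul* overlaps *Teddm2* and *Mir8114*, which had 0 reads in the count table, and *Gfap* had no reads of its own. *Slc1a2* and *Aqp4* have antisense genes within their spans, *Gfap* overlaps a lincRNA of the opposite strand, and *Slc1a3* and *Aldh1l1* overlap non-coding genes, none of which is a row of the count table. The partner of *Slc1a3* and 2 of the 3 partners of *Aldh1l1* lie on the strand of the member, so their reads cannot be told apart whether or not the counting used strand. For *Slc1a2*, *Aqp4* and the other partner of *Aldh1l1*, which lie on opposite strands, this depends on the use of strand, which is not given in the sources used here. *Aldoc*, *Gja1* and *Sox9* have no such overlap.

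The concentration of reads in 1 library was set beside that of other genes. *Slc1a3* had 87.8% of its reads in its richest library, *Gja1* 58.1%, *Slc1a2* 43.5%, *Glul* 42.9%, *Aqp4* 41.7% and *Aldoc* 24.5%. Over these 6 members the median was 43.2%. Among the 6141 tested genes with at least 10 reads the median was 50%, and 47.3% of those genes had over 50% of their reads in 1 library, beside 2 of the 6 members. For the 943 tested genes with at least 200 reads the median was 84.5%, with *Slc1a2* (1817 reads) well below and *Slc1a3* (271 reads) just above it. The mean of *Slc1a2* in each type, and that of *Slc1a3* in *Fezf2+ve*, rested mostly on 1 library.

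**Figure D3:**
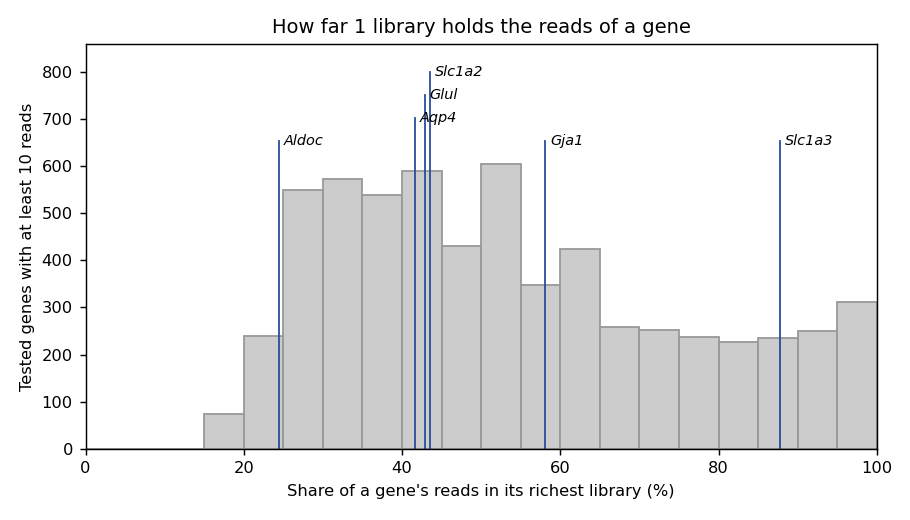
Number of tested genes with at least 10 reads (vertical axis) by the share of a gene's reads found in its richest library (horizontal axis, %, bins of 5). Blue lines mark the 6 members, from *Aldoc* at 24.5% to *Slc1a3* at 87.8%, beside a median of 50% over the 6141 genes.

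The tested members had 4 positive and 2 negative fold changes, with a median log2 fold change of 1.46, beside a median of −0.16 over all 7409 tested genes. The other 3 members did not pass the filter, so this median does not describe the whole list. No member was higher in the same type in all 5 animals, which 125 genes were for *Fezf2+ve* (1.69%) and 179 for *Fezf2−ve* (2.42%). The median SE of the tested members was 1.82, and that of all tested genes was 1.78. Each of the 6 fold changes lay within the 5th to 95th percentiles of all tested genes, −3.21 and 2.71.

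**Figure D4:**
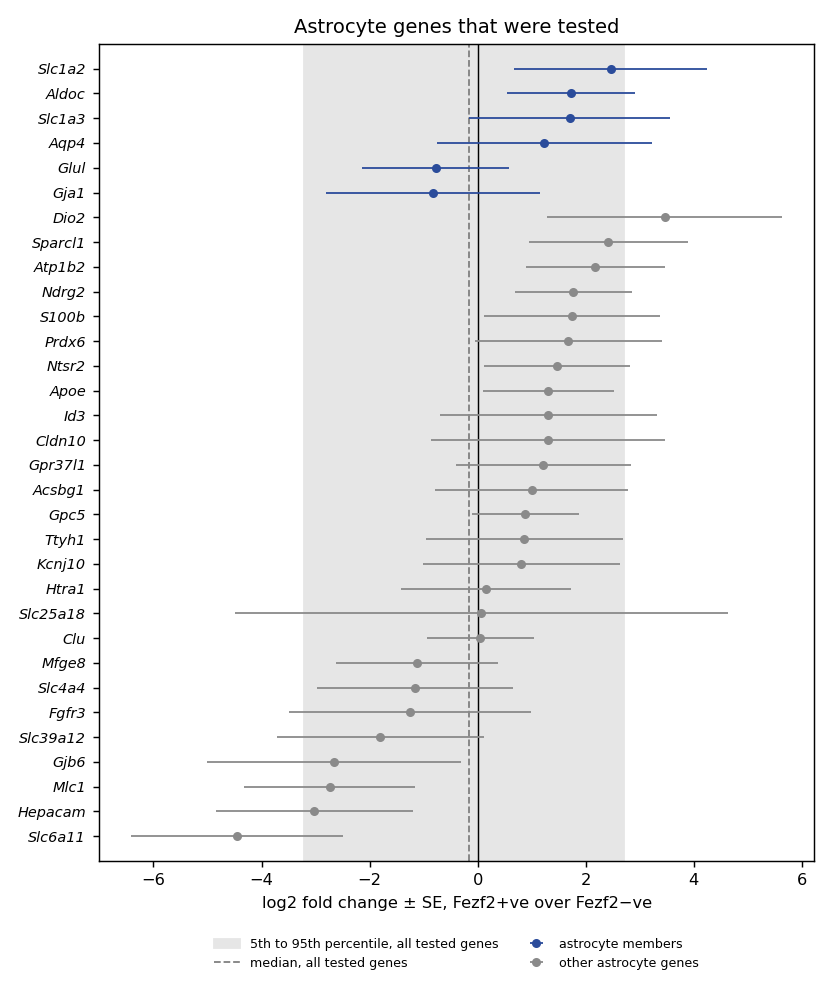
Log2 fold change of *Fezf2+ve* over *Fezf2−ve* with its SE (horizontal axis) for the 6 tested members in blue and 26 of the 27 tested other astrocyte genes in grey. The shaded band spans the 5th to 95th percentiles of all tested genes, −3.21 to 2.71, and holds all 6 members.

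A second list of 30 astrocyte genes was examined in the same way. Reads were found for 29 of the 30, with *Slc14a1* at 0, and 27 were tested. Their summed level in animals 1 to 5 was 15830, 3326, 9232, 957 and 2414 CPM in *Fezf2+ve* libraries. Those of *Fezf2−ve* IT-PNs had 6110, 1829, 2744, 2157 and 423 CPM. As for the members, *Fezf2+ve* was the higher of the pair in 4 of 5 animals with animal 4 opposite, and the types overlapped. The libraries with the highest sum of this list (*Fezf2+ve* 1 and 3) were not those with the highest sum of the members (*Fezf2+ve* 2 and *Fezf2−ve* 4). The mean was 6352 ± 6162 CPM (SD, n = 5) in *Fezf2+ve* and 2653 ± 2113 CPM (SD, n = 5) in *Fezf2−ve* IT-PNs, a log2 ratio of 1.26, with a median over libraries that gave 0.62.

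Of the 27 tested genes of this list, 18 had positive and 9 negative fold changes, with a median of 0.86, and edgeR's quasi-likelihood test called none. *Apoe*, a lipid carrier made by astrocytes and by microglia, had the most reads, 1555, and a log2 fold change of 1.31 ± 1.21 (SE). *Sparcl1*, a secreted synaptogenic protein, had 1189 of its 1464 reads in *Fezf2+ve* 1 and a log2 fold change of 2.42 ± 1.47 (SE). *Gpr37l1*, a receptor of astrocytes, had 631 of 949 reads in *Fezf2+ve* 3. *Gpc5*, a glypican, had a log2 fold change of 0.88 ± 0.99 (SE). *Slc6a11*, a GABA transporter of astrocytes, was the 1 gene of the list with an unadjusted p under 0.05 (0.0405, adjusted p = 0.999, edgeR's quasi-likelihood test with adjustment by Benjamini-Hochberg), beside 3.89% of all tested genes. Its log2 fold change was −4.45 ± 1.96 (SE), with 88 of its 92 reads in *Fezf2−ve* 4, the library with the most *Slc1a2* reads. Of the 27 tested genes, 2 were higher in *Fezf2+ve* (*Ndrg2* and *Atp1b2*) and 1 in *Fezf2−ve* (*Mlc1*) in 5 of 5 animals, beside 1.69% and 2.42% of all tested genes. These 3 were named after their values were seen, and *Mlc1* had 29 reads, with 0 or 1 in each *Fezf2+ve* library.

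The pattern of *Slc1a2* over libraries was compared with that of all tested genes by Pearson's correlation of log2(TMM-scaled CPM + 1) over the 10 libraries. The 5 genes most like it were *Fry* (r = 0.93), *Gm13157* (0.84), *Dap* (0.84), *Chd5* (0.83) and *Msh4* (0.82). Their Spearman correlations were 0.79, 0.73, 0.77, 0.81 and 0.77. Of the 174 reads of *Fry*, 52 were in *Fezf2+ve* 2 and 111 in *Fezf2−ve* 4, the libraries that were also richest in *Slc1a2*. *Dap* had 9 and 8 of its 21 reads in these libraries, and *Chd5* 4 and 4 of 9. *Gm13157* had 61 of its 72 reads in *Fezf2+ve* 2 and 7 in *Fezf2−ve* 4, and *Msh4* had 53 of 65 and 2, so these correlations rested on few libraries and for *Dap* and *Chd5* on few reads. Without the libraries farthest from the median of *Slc1a2*, *Fezf2−ve* 4 and 5, r was 0.90, 0.85, 0.78, 0.82 and 0.93 over 8 libraries, in which *Fezf2+ve* 2 remained. Of the other tested members, *Aqp4* was the most like *Slc1a2* with a Pearson correlation of 0.66, at rank 127 among the tested genes, followed by *Aldoc* with 0.40 at rank 850. *Gja1*, *Slc1a3* and *Glul* had correlations of 0.24, 0.18 and 0.15. Over the same 8 libraries the values were 0.59 for *Aqp4*, 0.67 for *Aldoc*, 0.23 for *Gja1*, −0.14 for *Slc1a3* and −0.12 for *Glul*, so that of *Aldoc* rose and those of *Slc1a3* and *Glul* changed sign.

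The IT-PN label was checked against neuronal markers. Of 10 general neuronal markers 9 had reads, and they summed to 381, 697, 313, 356 and 63.9 CPM in *Fezf2+ve* IT-PNs of animals 1 to 5. The *Fezf2−ve* sums were 77.4, 123, 113, 94.6 and 59.7 CPM. *Map2*, a dendritic protein, had the most reads, 112 of 300, and *Nefl* had 0. Of 7 excitatory neuron markers 6 had reads, *Tbr1* had 0, and *Camk2a* had 588 of 634 reads, 529 of them in *Fezf2−ve* 3. *Fezf2* itself had 1 read, in *Fezf2+ve* 5. A count this low at this depth does not show that *Fezf2* was absent. By RT-PCR of the sorted fractions, the authors detected endogenous *Fezf2* in the *Fezf2+ve* and not in the *Fezf2−ve* samples. *Tbr1*, *Fezf2* and *Slc17a7*, which mark cortical projection neurons, thus had 0, 1 and 11 reads over the 10 libraries together.

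Markers of other cell types were read in the same libraries, and their part in the levels of the members was not tested. All 10 microglia markers were detected and tested, and none was called by edgeR with the block. They summed to 245, 167, 84.7, 66.0 and 118 CPM in the *Fezf2+ve* and to 6337, 4263, 6751, 1623 and 3945 CPM in the *Fezf2−ve* libraries, in the order of the animals. In this list the types did not overlap, unlike for the members. *Ctss*, a lysosomal protease with the most reads of the list (817), had a log2 fold change of −6.28 ± 1.45 (SE; adjusted p = 0.993 by the quasi-likelihood test of edgeR after Benjamini-Hochberg adjustment). Of the 10, 9 had an unadjusted p under 0.05 by edgeR's quasi-likelihood test and were lower in *Fezf2+ve*, beside 3.89% of all tested genes with such a p. Among them were *Csf1r*, *P2ry12*, *Tyrobp*, *C1qa*, *C1qb*, *C1qc* and *Tmem119*. DESeq2 and edgeR without the block called 9 of the 10 each, beside 1.32% and 3.77% of all tested genes.

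Of 8 oligodendrocyte markers 7 had reads, with *Opalin* at 0. They summed to 779, 10674, 618, 106 and 403 CPM in the *Fezf2+ve* and to 2049, 662, 409, 114 and 271 CPM in the *Fezf2−ve* libraries, in the order of the animals. The highest sum was that of *Fezf2+ve* 2, the library with 778 reads of *Slc1a2*. *Fezf2−ve* 4, the other library rich in *Slc1a2*, had the lowest oligodendrocyte sum of its type. All 6 markers of oligodendrocyte precursors had reads, led by *Pdgfra* with 740, and summed to 85.8 to 3224 CPM in *Fezf2+ve* and 132 to 1138 CPM in *Fezf2−ve* libraries. Of 9 markers of endothelial and mural cells 8 had reads, led by *Flt1* with 26, with *Vtn* at 0 and sums of 8.46 to 102 CPM over all libraries. Of 8 interneuron markers 3 had reads, led by *Gad2* with 6, and *Pvalb*, *Vip*, *Slc32a1*, *Dlx1* and *Lhx6* had 0.

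**Figure D5:**
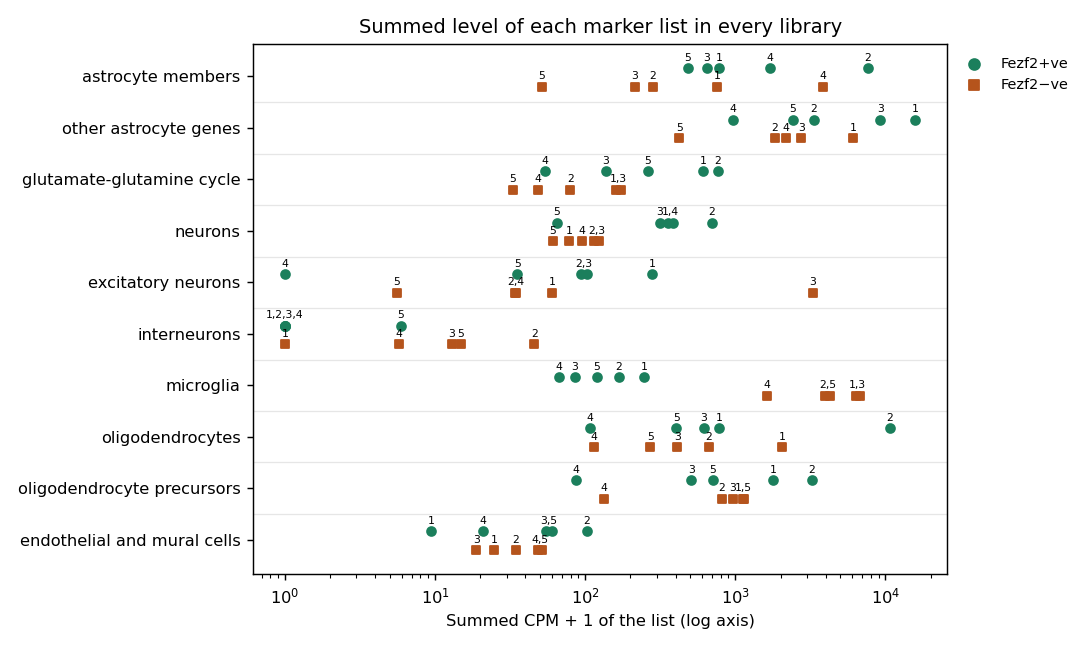
Summed level (CPM + 1, log axis) of each marker list in each library, with animal numbers above the points. The astrocyte members spanned 50.5 to 7655 CPM with overlapping types, whereas the microglia list spanned 66.0 to 245 CPM in *Fezf2+ve* and 1623 to 6751 CPM in *Fezf2−ve* libraries.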

How the data were processed

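Read counts of 10 RNA-seq libraries were used. After demultiplexing and trimming, the authors mapped reads with TopHat2 (2.1.1 in the submitters' notes) to mm10 or to ERCC spike-in sequences, and deposited counts per RefFlat gene and per ERCC transcript from BEDTools multiCov (bedtools 2.26.0), without normalization. Their table of DESeq2 results, with mean levels, fold changes, standard errors and p-values, was not used. Genes reaching 10 CPM in 2 or more libraries were tested with edgeR 4.0.16 (TMM, quasi-likelihood, animal as a block) in R 4.3.3, and DESeq2 1.42.0 was an alternative. SEs were calculated back from the F statistic. The sample records state that both types came from 1 animal. Deviations from the type means correlated at a mean r of 0.0291 within animals and −0.00727 between them. Named genes were the members, and of other lists the most abundant genes (5 of the other astrocyte genes, 1 of each further list), those with an unadjusted p under 0.05, transporters, cycle genes and paralogues with at least 10 reads, *Fezf2*, and the 5 genes most like *Slc1a2*; a few genes that this rule takes are not reported here. Members and lists were chosen with earlier results of these data known. *Slc17a7* and *Sox10* each stand in 2 lists. Positions (from 1) are those of GENCODE for mm10 (GRCm38), and spans those of RefSeq. ERCC reads made up 2.79 to 46.7% of reads on ERCC transcripts and genes. Python 3.11.15 with pandas 2.3.3 and scipy 1.17.1 was used otherwise.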

Additional observations from a re-analysis of the deposited data

Results flagged for a closer look

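Within each type of 5 libraries, the gap between the highest or lowest library and the next was divided by the range of the type, and a quotient above 0.710 was taken as a library far from the others. Chance gives this in about 1 in 20 groups if values are normally distributed. It was met in 8 of the 16 groups examined, of which 12 were single members with 6 such libraries, beside 41.0% of the 12101 groups over all tested genes with at least 10 reads. A count near that share is no result about the members. For *Slc1a2* the libraries were *Fezf2+ve* 2 at 7228 CPM and *Fezf2−ve* 4 at 3742 CPM, and for *Slc1a3* it was *Fezf2+ve* 4 at 1570 CPM. For *Aldoc* it was *Fezf2−ve* 1 at 238 CPM, the only library of its type above 33.7 CPM. For *Gja1* they were *Fezf2+ve* 3 at 42.3 CPM, which is 5 reads, and *Fezf2−ve* 1 at 107 CPM. The sum of the 9 members was far from the others in *Fezf2+ve* 2 (7655 CPM) and *Fezf2−ve* 4 (3818 CPM), where *Slc1a2* made up 778 of 824 and 791 of 807 reads. *Aqp4*, *Glul* and the sum of the other astrocyte genes had no such library. The cause was not tested.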

How the results depend on the processing

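Of 69 alternative values of the 6 tested members, 66 kept the direction of the fold change and 0 reached an adjusted p at or below 0.1 (edgeR's quasi-likelihood test or DESeq2, Benjamini-Hochberg). The log2 fold change of *Slc1a2* reversed to −0.05 without the animal block, that of *Aqp4* to −0.14 without animal 1 and that of *Gja1* to 0.41 without animal 1; the cause was not tested. Leaving out 1 animal at a time gave 1.39 to 3.52 for *Slc1a2*, 0.45 to 2.92 for *Slc1a3*, −0.14 to 2.48 for *Aqp4*, −1.58 to −0.01 for *Glul* and −2.21 to 0.41 for *Gja1*. *Aqp4* without animal 2, and *Aqp4* and *Gja1* under the stricter filter of 10 CPM in 5 libraries, were not tested. DESeq2 gave no adjusted p for *Aqp4*, *Glul* and *Gja1*.

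Over all genes, 0 were called with the animal block, 279 without the replicate block and 98 by DESeq2. The legacy quasi-likelihood method, chosen after seeing the data, also called 0. At an unadjusted p under 0.05 there were 288 genes with the block, 1345 without it, and 175 to 270 with 1 animal left out. The block changed no call of a member. The log2 ratio of the summed members was −0.43 to 2.87 with 1 animal left out, and that of the other astrocyte genes 1.1 to 1.47. With 89138 to 217738 reads per library, *Gfap*, *Sox9* and *Aldh1l1* were below what could be compared.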
